A study of Mus musculus with 24 samples.

Results

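The chemokines and their receptors were followed in cultured mouse organ of Corti (OC) explants under gentamicin and pioglitazone. The members are all genes in the count table whose mouse symbol begins with Ccl, Cxcl, Cx3cl, Xcl, Ccr, Cxcr, Cx3cr or Xcr followed by a digit. They numbered 59 of 24454 genes, with 25 CC ligands, 13 CXC ligands, 2 other ligands (Cx3cl1 and Xcl1) and 19 receptors. Averaged over the treatments, the monocyte attractants Ccl2 and Ccl7 were 13.7-fold and 14.6-fold lower at 24 h than at 6 h. With pioglitazone, averaged over time and gentamicin, Cxcl16, Cxcl14, Ccl9 and Cxcr4 were lower and Ccl25 and Ccl28 were higher, of which Ccl28 kept its call in only 11 of 31 alternatives and Ccl9 in 28 of 32. With gentamicin no member passed the main test with edgeR (0.276% of all genes did), and the IFN-induced Cxcl10 came nearest with a 3.61-fold higher averaged level. DESeq2 and some of the other alternatives did call Cxcl10.

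The explants came from C57BL/6N pups of both sexes at postnatal day 5 and were kept in medium for 24 h before treatment. Culture then went on for 6 or 24 h in medium alone (CTRL) or in medium holding gentamicin at 50 μM (GM), pioglitazone at 10 μM (PIO) or the 2 drugs together (PIO+GM), and the CTRL explants thus shared the explantation and pre-culture. Gentamicin is an aminoglycoside antibiotic that damages auditory hair cells, and pioglitazone activates PPAR-γ, a nuclear receptor. Each of the 8 groups had 3 libraries of total RNA, each from 6 pooled OCs, and the p-values thus measure the spread between libraries of pooled explants.

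Chemokines are small secreted proteins that guide migrating leukocytes by binding G protein-coupled receptors, and most receptors are used by several ligands. Inflammatory ligands such as Ccl2, Cxcl1 and Cxcl10 are induced by NF-kB, cytokines and IFN, whereas homeostatic ligands such as Cxcl12 and Cxcl14 are made constantly in many tissues. In the cochlea, Cx3cl1 (fractalkine) and its receptor Cx3cr1, which marks resident macrophages, are the pair best known from studies of injury.

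Promoter sequence (RefSeq, build GRCm38.p6, which mm10 shares) was found for 43 of the 59 members and for 18 of the 26 that were tested. The 250 bases before the annotated start are shown 5′ to 3′ for 5 genes that the results turn on. Cxcl10 (chr5:92348890-92349139, minus strand) was nearest to a call for gentamicin. Cxcl1 (chr5:90890995-90891244, plus strand) and Cxcl2 (chr5:90903649-90903898, plus strand) are neighbouring neutrophil attractants that were lower at 24 h. Cxcl14 (chr13:56296552-56296801, minus strand) and Cxcr4 (chr1:128592300-128592549, minus strand) were lower with pioglitazone. The Cxcl14 window lies before the start used for its promoter, but inside the gene's wider annotated span (chromosome 13, 56288643 to 56296811). Capitals mark every match, on either strand, to 4 short motifs, and overlapping matches run together. The motifs are kB (GGGA, any 4 bases, CC), ISRE (GAAA, any 2 bases, GAAA), AP-1 (TGANTCA) and PPRE (AGGTCA, any 1 base, AGGTCA).
Cxcl10: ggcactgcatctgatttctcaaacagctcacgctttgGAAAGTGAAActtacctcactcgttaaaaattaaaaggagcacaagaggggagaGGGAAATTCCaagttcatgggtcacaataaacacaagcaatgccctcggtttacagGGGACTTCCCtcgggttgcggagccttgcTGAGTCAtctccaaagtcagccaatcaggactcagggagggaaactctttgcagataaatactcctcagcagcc
Cxcl1: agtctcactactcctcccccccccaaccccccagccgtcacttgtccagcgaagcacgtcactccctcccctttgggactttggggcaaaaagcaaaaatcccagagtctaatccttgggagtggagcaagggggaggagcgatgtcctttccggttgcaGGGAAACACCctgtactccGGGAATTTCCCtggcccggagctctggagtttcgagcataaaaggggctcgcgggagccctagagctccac
Cxcl2: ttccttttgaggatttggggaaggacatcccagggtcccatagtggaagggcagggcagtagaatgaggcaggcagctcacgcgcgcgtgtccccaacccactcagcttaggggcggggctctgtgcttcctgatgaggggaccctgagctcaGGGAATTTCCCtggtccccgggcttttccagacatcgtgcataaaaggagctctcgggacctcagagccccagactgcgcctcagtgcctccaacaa
Cxcl14: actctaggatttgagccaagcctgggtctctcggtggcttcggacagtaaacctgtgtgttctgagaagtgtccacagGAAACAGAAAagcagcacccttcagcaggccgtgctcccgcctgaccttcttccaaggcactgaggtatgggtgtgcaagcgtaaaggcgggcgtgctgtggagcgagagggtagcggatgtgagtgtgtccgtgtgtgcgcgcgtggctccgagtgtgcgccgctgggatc
Cxcr4: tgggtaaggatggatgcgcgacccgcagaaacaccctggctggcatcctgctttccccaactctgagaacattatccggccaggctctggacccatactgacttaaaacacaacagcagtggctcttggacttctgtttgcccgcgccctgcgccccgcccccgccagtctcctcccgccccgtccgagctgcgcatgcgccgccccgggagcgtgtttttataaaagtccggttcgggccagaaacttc

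Cxcl10 held 4 matches, to kB at positions -159 to -150 and -103 to -94 from the start, to ISRE at -213 to -204 and to AP-1 at -74 to -68. Cxcl1 and Cxcl2 both held the kB match GGGAATTTCC, overlapped 1 base further on by GGAATTTCCC, which matches on the other strand, at -71 to -62 in Cxcl1 and -97 to -88 in Cxcl2, and Cxcl1 held another kB match at -90 to -81. Cxcl14 held 1 ISRE match, which lies inside its wider annotated span, and Cxcr4 held none of the 4 motifs. Among the 43 members with a promoter, 18 (41.9%) had a kB match, beside 19.7% of 27025 genes in the same table, and 6 of the 18 tested members had one. ISRE matches were found in 3 of 43 members and 3.46% of all genes, and AP-1 matches in 6 of 43 and 7.82%. No member held the PPRE letters in this window, which only 0.0407% of all genes did. A match is a run of letters and not a shown binding site.

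Of the 59 members, 26 were abundant enough to be tested (edgeR's filter on low counts), namely 14 CC ligands, 6 CXC ligands, Cx3cl1 and 5 of the 19 receptors. Among all genes counted, 66.7% were tested. Every member had at least 1 count in some library, but the same was true of 24227 genes, and 10 members had 10 counts or more in every library, beside 55.4% of all genes. As a gauge of background, the 95th percentile of mean RPKM (counts scaled to the library total and to gene length in kilobases) over 1479 olfactory and vomeronasal receptor genes was 0.0986, and 35 members lay above it, with 8 of the 19 receptors, beside 76.9% of all genes. Ccr9 and Ccl21b, Ccl21c and Ccl21d were tested but lay below it, at mean RPKM between 0.0867 and 0.0911.

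Per length, Cx3cl1 had the highest level, with a mean RPKM of 24.2 ± 8.99 (SD over all 24 libraries). Cxcr4, the receptor for Cxcl12, followed at 18.8 ± 6.69, and its libraries overlapped those of Cx3cl1. Ccl2 (13.9 ± 19.9), Cxcl14 (11.3 ± 14.6), Ccl7 (9.41 ± 12.9) and Cxcl10 (8.69 ± 11.3) came next, each with an SD above its mean. These 4 ligands differed between libraries far more than Cxcl16 (5.13 ± 1.93) or Ccl27a (4.29 ± 1.85). Cxcl12 (7.15 ± 4.7) and Ccl11 (4.94 ± 3.85) completed the 10 highest, and no neighbours among these 10 were separated beyond the spread of their libraries. The plot of RPKM in each library shows the 6 h and 24 h libraries apart for Ccl4 and Ccl27a and nearly apart for Ccl2, Ccl7 and Cxcl14.

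**Figure D1:**
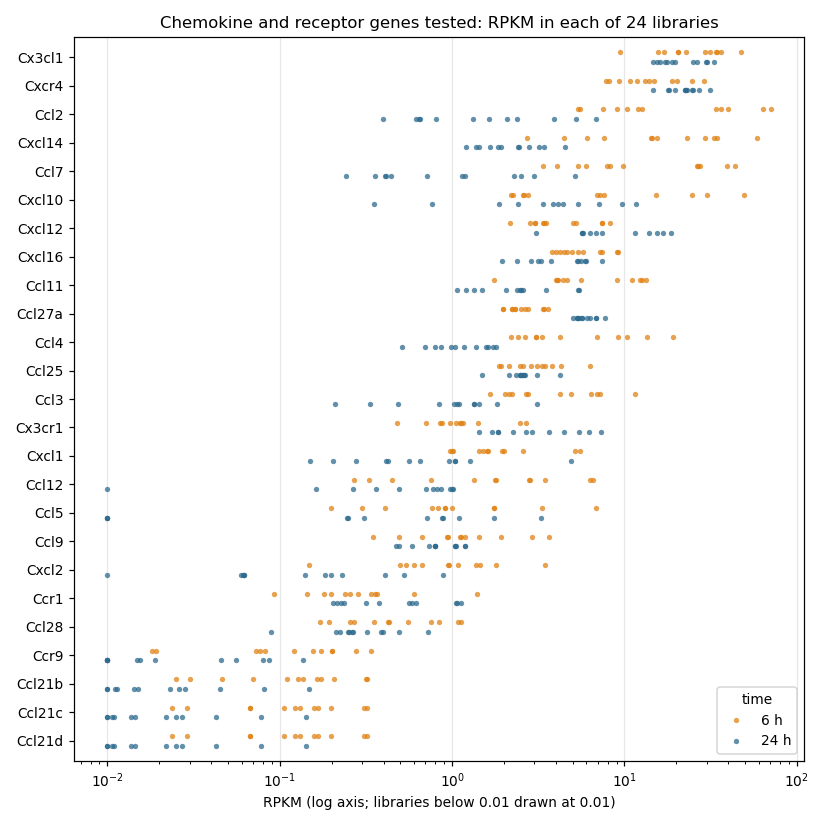
RPKM (log axis) of 25 of the 26 tested members in each of the 24 libraries, ordered by mean RPKM, with 6 h libraries in orange and 24 h libraries in blue. Cx3cl1 and Cxcr4 have the highest means, every 24 h library of Ccl4 lies below its 6 h libraries, and every 24 h library of Ccl27a lies above its 6 h libraries.

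Library totals ran from 7211357 to 15548856 counts, at which 3 counts equal 0.193 to 0.405 CPM (counts scaled to the library total with TMM factors). The smallest library, PIO+GM 6 h replicate 3, also had the most olfactory and vomeronasal receptor reads, 270.5 CPM, where the others had 38.9 to 211.1 CPM. All 15 macrophage markers were tested and summed to between 68.9 and 312.1 CPM. Neutrophil markers summed to at most 5.32 CPM and lymphocyte markers to at most 4.59 CPM, with S100a8 and Cd3e at 0 in 6 libraries each. In such bulk RNA, fewer cells of a type and less RNA per cell cannot be told apart.

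Time in culture was compared first, since every treatment was sampled at both times. Between 6 and 24 h without drugs, 5 of 26 members passed the test (edgeR quasi-likelihood, adjusted p under 0.05), beside 28% of all genes tested. Averaged over the 4 treatments (12 libraries at each time), 20 of 26 passed, or 76.9% beside 62.6% of all genes. Of these, 16 were lower at 24 h and 4 higher, whereas of all genes 30.7% were lower and 31.9% higher. The 20 and the 16 count the near-identical Ccl21b, Ccl21c and Ccl21d as 3 members. The split into lower and higher depended on the filter, which asks for about 10 counts (0.798 CPM) in 3 libraries. Of the 26 members, 7 reached that level in 3 libraries only at 6 h (Ccl5, Ccl12, Cxcl2, Ccr9, Ccl21b, Ccl21c and Ccl21d) and 0 only at 24 h, so a lower level at 24 h was partly a condition of their being tested. Of these 7, 6 were called lower, beside 75.3% of all 567 genes that reached it only at 6 h. Among the 19 members that reached it at both times, 10 were lower and 4 higher, beside 29.8% and 32.8% of such genes. With 10 counts asked in every library, which a member low at either time cannot meet, 10 members were tested and the split was even, with 4 lower and 4 higher, beside 32.1% and 32.2% of all genes.

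Of the CCR2 ligands, which draw monocytes, Ccl2 and Ccl7 were lower at 24 h on average, and so was Ccl12, which was tested only through its 6 h libraries. Ccl2 (Entrez 20296, chromosome 11, 82035577 to 82037452) measured 7.32, 51.1 and 8.39 CPM in the 3 CTRL libraries at 6 h and 0.527, 1.32 and 5.5 CPM at 24 h. The groups did not overlap, although replicate 2 at 6 h stood far above the other 6 h libraries and replicate 3 at 24 h came close to them. The log2 difference was -3.20 ± 0.97 (SE, adjusted p = 0.0192) in CTRL and -3.78 ± 0.52 (adjusted p = 3.62e-06) averaged over treatments.

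Ccl7 lies next to Ccl2 (chromosome 11, 82045712 to 82047525) and binds the same receptor. In CTRL it measured 7.8, 34.9 and 4.79 CPM at 6 h and 0.352, 0.33 and 1.83 CPM at 24 h, with no overlap. Its log2 difference was -4.26 ± 1.06 (adjusted p = 0.0055) in CTRL and -3.87 ± 0.52 (adjusted p = 3.19e-06) averaged. Without CTRL 6 h replicate 2 the CTRL count fell to 2 members, Cxcl14 and Ccl27a, and Ccl2, Ccl7 and Ccl4 missed the threshold at adjusted p of 0.233, 0.0551 and 0.311. Ccl2 and Ccl4 also missed it without CTRL 24 h replicate 1 (0.0797 and 0.0865) or replicate 2 (0.0755 and 0.0973). Without CTRL 6 h replicate 2 the CTRL log2 difference was -1.70 for Ccl2 and -2.94 for Ccl7, and without CTRL 24 h replicate 3 it was -4.52 and -5.50. The averaged differences of all 3 genes passed in each of the 24 fits that left out 1 library.

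The third CCR2 ligand tested, Ccl12, lay between 0.145 and 3.53 CPM at 6 h and between 0 and 0.541 CPM at 24 h. Its averaged log2 difference was -1.71 ± 0.46 (adjusted p = 0.00322), but no 24 h library held more than 8 counts or reached the filter's level. Ccl8 was below the filter with 32 counts in all libraries together, and so was the receptor Ccr2 with 104 counts. No library held more than 7 counts of Ccr2, and neither DESeq2 nor edgeR without the filter called it over time.

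In the 6 h groups the same libraries were high for several inflammatory ligands. Replicate 2 had the highest Ccl2, Ccl7 and Ccl4 of the 3 libraries in CTRL, GM and PIO, and replicate 1 did in PIO+GM, at 56.8, 31.3 and 12.6 CPM. These 4 libraries also had the highest summed Schwann cell markers of their groups, 1964, 2567, 1578 and 2404 CPM, where the other 6 h libraries lay between 359 and 1729. Schwann cell markers were lower at 24 h (3 of 5 passed, beside 30.7% of all genes), at 333 to 842 CPM. Their part in the result was not tested.

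Ccl3 and Ccl4, which draw macrophages and T cells, were also lower at 24 h. Ccl4 had a median of 2.49 CPM (1.45 to 12.6) over the 12 libraries at 6 h and 0.726 CPM (0.338 to 1.19) at 24 h, and the 2 sets of libraries did not overlap. Its averaged log2 difference was -2.36 ± 0.35 (adjusted p = 9.32e-06), and that of Ccl3 was -1.93 ± 0.37 (adjusted p = 0.000162). The eosinophil attractant Ccl11, from the same stretch of chromosome 11 as Ccl2, had a median of 5.49 CPM at 6 h and 2.61 CPM at 24 h, with overlap, and was lower by 3.02-fold (adjusted p = 0.000163). Ccl5 (log2 -1.18 ± 0.57, adjusted p = 0.0796) and Ccl9 (-0.56 ± 0.24, adjusted p = 0.0519) did not pass. Ccl9 was called with DESeq2, without TMM factors, with 10 counts in every library, and in 8 of the 24 fits that left out 1 library.

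Cxcl1 and Cxcl2, the CXCR2 ligands with the shared kB match shown above, were both lower at 24 h. Cxcl2 had a median of 1.03 CPM at 6 h (0.16 to 3.73) and 0.175 CPM at 24 h (0 to 0.96), which is below the level that 3 counts give. Only 1 library at 24 h reached the filter's level, beside 7 at 6 h, and the fitted log2 difference was -2.51 ± 0.48 (adjusted p = 0.000157). Cxcl1 had medians of 1.52 and 0.573 CPM and a difference of -1.43 ± 0.42 (adjusted p = 0.00598). The 24 h libraries of Cxcl1 reached 4.63 CPM in CTRL replicate 3, within the 6 h range. Their receptor Cxcr2 was below the filter, with 77 counts in all. The CXCR3 ligand Cxcl10 was lower at 24 h by 2.52-fold averaged over treatments (adjusted p = 0.00781), but not in CTRL alone, where the log2 difference was 0.08 ± 0.81 (adjusted p = 0.959). Its receptor Cxcr3 had 14 counts in all.

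Of 8 ligands listed as homeostatic (Cxcl12, Cxcl13, Cxcl14, Ccl19, Ccl21a, Ccl25, Ccl27a and Ccl28), 5 were tested, and 2 were lower and 2 higher, beside 30.7% and 31.9% of all genes. The list does not hold Ccl21b, Ccl21c and Ccl21d, which are described with the receptors. Cxcl14, made by epithelia and fibroblasts, measured 42.2, 53.6 and 26.4 CPM in CTRL at 6 h and 5.8, 4.43 and 4.45 CPM at 24 h. These groups were far apart, with a log2 difference of -3.06 ± 0.68 (adjusted p = 0.0025), and the averaged difference was -2.97 ± 0.34 (adjusted p = 4.13e-07). Ccl28, a mucosal ligand of Ccr10, was lower by 1.52-fold on average, at an adjusted p of 0.0478 that 21 of 31 alternatives did not keep. In CTRL alone its estimate had the opposite sign (log2 0.65 ± 0.54, adjusted p = 0.392), with 0.643, 1.32 and 0.719 CPM at 6 h and 1.49, 0.925 and 1.83 CPM at 24 h.

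Ccl27a, the other Ccr10 ligand, measured 3.7, 3.26 and 5.03 CPM in CTRL at 6 h and 7.73, 8.92 and 7.77 CPM at 24 h. Over all treatments its 12 libraries at 24 h (7.34 to 11.3 CPM) lay above all 12 at 6 h (2.88 to 5.27 CPM), and the averaged log2 difference was 1.19 ± 0.12 (adjusted p = 6.59e-08). Cxcl12, the ligand of Cxcr4, had medians of 24.7 and 51.2 CPM with overlapping libraries and was higher by 2.15-fold (adjusted p = 0.00439). That call was lost (adjusted p = 0.104) with the olfactory and vomeronasal receptor reads as a covariate, an alternative added after the data were seen. Ccl25, which draws gut-homing T cells, did not pass (adjusted p = 0.139).

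Of the 5 receptors tested, Cx3cr1 and Cxcr4 were higher at 24 h and Ccr9 was lower. Cx3cr1 measured 4.18, 5.29 and 3.27 CPM in CTRL at 6 h and 10.1, 16.6 and 6.37 CPM at 24 h, with no overlap. The averaged log2 difference was 1.48 ± 0.32 (adjusted p = 0.000485). Replicate 2 was the highest 24 h library of Cx3cr1 in each treatment (16.6, 20.5, 27.6 and 23.3 CPM) and of Cxcl12 too (99.6, 121, 133 and 110 CPM). The summed macrophage markers moved with them, from 68.9 to 173.6 CPM at 6 h to 105 to 312.1 CPM at 24 h, and 8 of 15 passed as higher, beside 31.9% of all genes. Their part in the result was not tested.

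Cxcr4 had a median of 24.5 CPM at 6 h and 40.9 CPM at 24 h, with overlap, and was higher by 1.54-fold (adjusted p = 0.000525). Ccr9, the Ccl25 receptor, was lower by a log2 difference of -2.24 ± 0.49 (adjusted p = 0.000513), but it had at most 14 counts in a library and reached the filter's level only in 4 libraries, all at 6 h and with pioglitazone. Without CTRL 24 h replicate 1 the difference was -3.14. Of its annotated exon bases 18.8% lie opposite another transcript. Ccr1, a receptor of Ccl3, Ccl5, Ccl7 and Ccl9, did not pass (0.75 ± 0.38, adjusted p = 0.0959). Ccl21b, Ccl21c and Ccl21d were each lower at 24 h, by 3.96-fold to 4.02-fold on the fitted scale, and Ccl21c and Ccl21d had equal counts in 24 of 24 libraries. Only 1 library at 24 h, CTRL replicate 2, reached the filter's level, beside 5 at 6 h, and without it the log2 differences were -2.67 to -2.69 in place of -1.99 to -2.01. Ccl21b had equal counts to either of them in 22 libraries. How reads that match several copies were counted is not stated, and these near-identical copies are read as 1 measurement of uncertain origin.

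**Figure D2:**
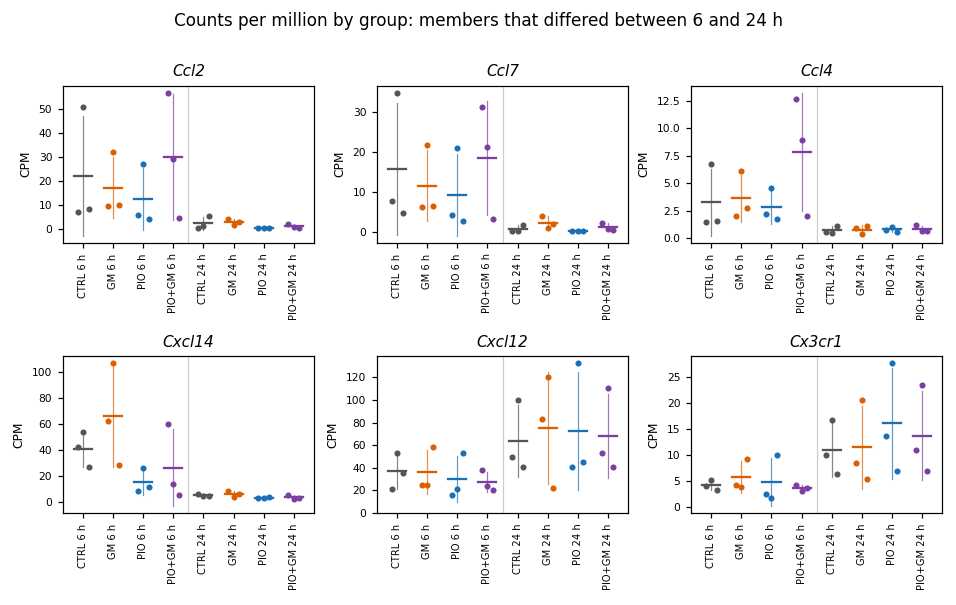
CPM of 6 members that differed between 6 and 24 h, in the 8 groups. Points are libraries, horizontal bars the mean of 3 libraries and vertical lines ± 1 SD. Ccl2, Ccl7, Ccl4 and Cxcl14 sit low in all 4 groups at 24 h, with 1 high library in most 6 h groups, and Cxcl12 and Cx3cr1 sit higher at 24 h, led by replicate 2.

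The next comparison asked what pioglitazone alone did to the explants. PIO against CTRL called 0 of 26 members at 6 h with edgeR (0.337% of all genes) and 0 at 24 h (0.153%). At an unadjusted p under 0.05 there were 7 members at 6 h and 6 at 24 h, beside 15.2% and 9.93% of all genes. DESeq2 called 2 at 6 h (Cxcr4 and Ccl25) and 1 at 24 h (Cxcl16), beside 2.52% and 0.97% of all genes. The estimate lay below 0 for 20 of 26 members at each time, beside 49.7% and 51.4% of all genes, with a median log2 difference of -0.62 at 6 h and -0.96 at 24 h. Of the 26, 5 reached the filter's level in 3 libraries only without pioglitazone (Ccl5, Ccl12 and the 3 Ccl21 copies) and 1 only with it (Ccr9), so these counts and medians are descriptions.

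PIO+GM against GM, which asked whether pioglitazone changed the cultures with gentamicin, also called 0 of 26 with edgeR at 6 h (1.32% of all genes) and at 24 h (0.11%). Unadjusted, 5 members passed at 6 h and 1 at 24 h, beside 25% and 7.47% of all genes, and DESeq2 called 0 at both times, beside 9.22% and 0.647%. The median log2 difference was 0.13 at 6 h and -0.46 at 24 h. PIO against CTRL and PIO+GM against GM share no libraries. At 24 h, 16 of 26 members (61.5%) were lower in each of them, beside 36.7% of all genes, and at 6 h 10 of 26 (38.5%), beside 38.4%. The 16 include Ccl5, Ccl12 and the near-identical Ccl21b, Ccl21c and Ccl21d. These 5 reached the filter's level in 3 libraries only without pioglitazone, so a lower level was partly a condition of their being tested. The 16 also include Cxcl1, whose log2 difference in PIO+GM against GM was -0.002. The count is therefore a description.

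Averaged over time and gentamicin (12 libraries with and 12 without pioglitazone), 7 of 26 members passed, or 26.9% beside 20.5% of all genes. Of these, 5 were lower and 2 higher, beside 10.2% and 10.3% of all genes. Cxcl16 and Ccl9 are among the genes that the study named from these same samples, so these calls are not independent evidence of a direction. Ccl2, Ccl12 and Cxcl10, also named there, did not pass, but the study named them from PIO+GM against GM, by p-values with no stated adjustment, and not from this average.

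**Figure D3:**
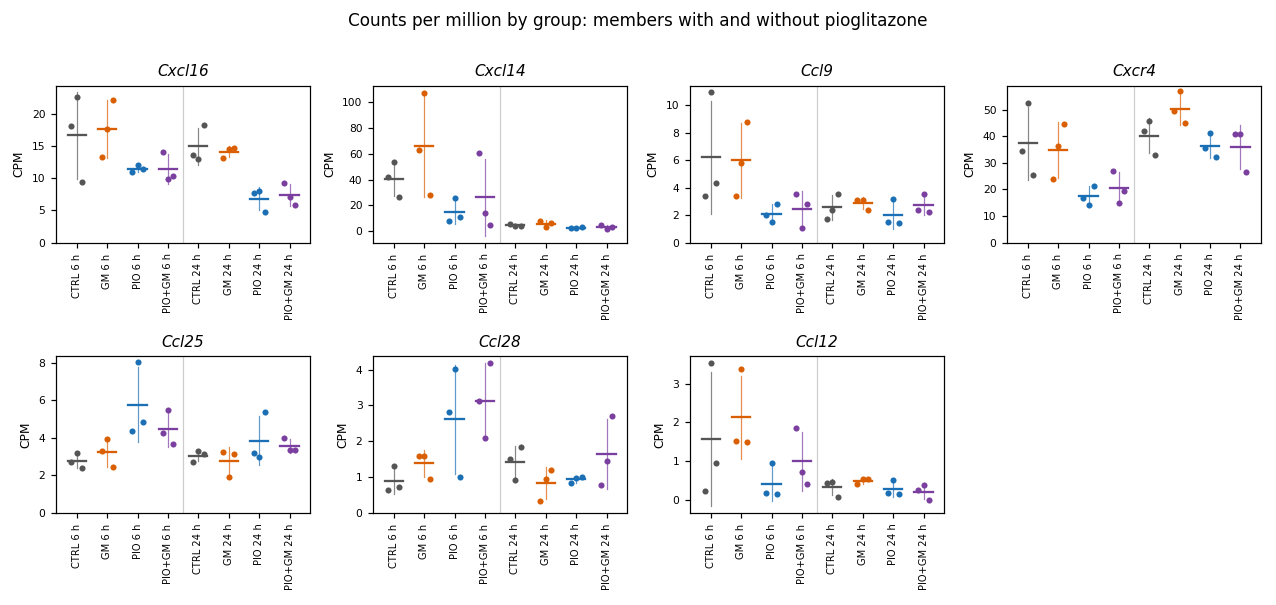
CPM of 6 of the 7 members that passed with pioglitazone and of Ccl12, in the 8 groups. Points are libraries, horizontal bars the mean of 3 libraries and vertical lines ± 1 SD. Cxcl16 lies lower in PIO and PIO+GM at 24 h than in CTRL and GM without overlap, Cxcr4 is lowest in PIO and PIO+GM at 6 h, and Ccl25 and Ccl28 are highest in libraries with pioglitazone at 6 h.

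Cxcl16, a membrane-bound ligand that also takes up oxidized lipoproteins, had the lowest p. At 24 h it measured 13.6, 12.9 and 18.2 CPM in CTRL and 7.71, 8 and 4.79 CPM in PIO. In the same cultures with gentamicin it measured 13.1, 14.5 and 14.7 CPM in GM and 9.2, 7.04 and 5.81 CPM in PIO+GM. Neither pair of groups overlapped at 24 h. PIO against CTRL gave a log2 difference of -1.12 ± 0.28 (unadjusted p = 0.000629, adjusted p = 0.109) and PIO+GM against GM one of -0.94 ± 0.28 (unadjusted p = 0.0029, adjusted p = 0.292).

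At 6 h the PIO libraries of Cxcl16 (11, 12.1 and 11.4 CPM) fell inside the spread of CTRL (18.1, 22.6 and 9.34 CPM). Averaged, Cxcl16 was 1.75-fold lower with pioglitazone (log2 -0.81 ± 0.14, adjusted p = 0.000786), and the adjusted p was at most 0.00226 over all 32 alternatives. The gene lies on chromosome 11 at 70454389 to 70459984, and 18.3% of its exon bases lie opposite exons of Zmynd15. Whether the authors counted by strand is not stated, and Zmynd15 itself had a log2 difference of -0.53 (adjusted p = 0.0779). Its receptor Cxcr6 had 53 counts in all libraries. The other membrane-bound ligand, Cx3cl1, had medians of 54.5 CPM with and 94 CPM without pioglitazone, and its difference of -0.52 ± 0.19 missed the threshold (adjusted p = 0.0621). DESeq2 called it, with 8 members in all beside 23.6% of all genes, and so did 5 of the 24 fits that left out 1 library.

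Cxcr4, which guides stem cells and lymphocytes along Cxcl12, was 1.54-fold lower with pioglitazone (log2 -0.62 ± 0.14, adjusted p = 0.00397). At 6 h it measured 34.3, 52.3 and 25.2 CPM in CTRL and 16.9, 14.1 and 21.3 CPM in PIO, with no overlap and a log2 difference of -1.09 ± 0.28 (adjusted p = 0.0793). At 24 h the PIO libraries (35.6, 41.1 and 32.3 CPM) overlapped those of CTRL (42.1, 45.5 and 33 CPM). Those of PIO+GM at 24 h (40.7, 40.8 and 26.5 CPM) lay below those of GM (49.3, 56.8 and 44.8 CPM), whereas at 6 h these 2 groups overlapped. The log2 difference of PIO+GM against GM at 24 h was -0.48 ± 0.27 (adjusted p = 0.745). The difference between the times had an unadjusted p of 0.0332 and an adjusted p of 0.482, so it was not shown. Cxcl12 itself did not pass (log2 -0.15 ± 0.31, adjusted p = 0.755).

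Cxcl14 was 2.12-fold lower with pioglitazone (log2 -1.08 ± 0.33, adjusted p = 0.0264). At 6 h the PIO libraries measured 8.16, 26.2 and 11.1 CPM, all below the CTRL libraries given above. At 24 h they measured 2.51, 2.6 and 3.36 CPM, again all below CTRL. In PIO+GM at 6 h, replicate 1 measured 60.3 CPM where the others measured 14 and 5 CPM, and GM measured 62.8, 107 and 28.2 CPM. Without GM 6 h replicate 2 the adjusted p was 0.0514.

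Ccl9 is a Ccr1 ligand known from macrophages and osteoclasts. At 6 h it measured 3.38, 10.9 and 4.31 CPM in CTRL and 2.02, 1.48 and 2.82 CPM in PIO, without overlap, whereas at 24 h both groups lay between 1.43 and 3.58 CPM. Averaged, it was 1.75-fold lower (log2 -0.81 ± 0.24, adjusted p = 0.0253). The call ended without CTRL 24 h replicate 3 (adjusted p = 0.0507), CTRL 6 h replicate 2 (0.0503) or GM 6 h replicate 3 (0.0524), and without the 2 smallest libraries (0.0506).

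Among other inflammatory CC ligands, Ccl3 (log2 0.40 ± 0.37, adjusted p = 0.464) and Ccl4 (0.31 ± 0.35, adjusted p = 0.553) did not pass with pioglitazone, and Ccl5 had an estimate of -1.16 ± 0.56 (adjusted p = 0.146). None of the 15 macrophage markers passed with pioglitazone on average, where 20.5% of all genes did. Their sums were 68.9 to 312.1 CPM with pioglitazone and 73.9 to 308.8 CPM without it.

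The 2 members that were higher with pioglitazone are homeostatic ligands. Ccl25 measured 2.73, 3.18 and 2.4 CPM in CTRL and 4.39, 8.05 and 4.85 CPM in PIO at 6 h, without overlap. At 24 h PIO measured 3.21, 2.99 and 5.36 CPM and overlapped CTRL (2.72, 3.3 and 3.14 CPM). PIO+GM at 24 h (3.97, 3.33 and 3.35 CPM) lay above GM (3.23, 1.89 and 3.14 CPM), whereas at 6 h these 2 groups overlapped. The log2 difference of PIO+GM against GM at 24 h was 0.37 ± 0.29 (adjusted p = 0.861). Averaged, Ccl25 was 1.47-fold higher (log2 0.56 ± 0.14, adjusted p = 0.0108), and all 32 alternatives kept the call. Of its exon bases 2.74% lie opposite Elavl1, whose own log2 difference was 0.00.

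Ccl28 measured 0.643, 1.32 and 0.719 CPM in CTRL, 2.81, 4.02 and 1.01 CPM in PIO and 3.13, 2.09 and 4.19 CPM in PIO+GM at 6 h. At 24 h PIO measured 0.835, 0.976 and 1 CPM, within or below the CTRL libraries given above, and the estimate for PIO against CTRL was negative there (log2 -0.58 ± 0.52, adjusted p = 0.781). The other 3 comparisons of pioglitazone within a time had positive estimates. Averaged, it was 1.7-fold higher (log2 0.76 ± 0.26, adjusted p = 0.0426), but 20 of 31 alternatives did not keep that call. Its highest values were in PIO 6 h replicate 2 and PIO+GM 6 h replicate 3, the 2 smallest libraries, whose olfactory and vomeronasal receptor reads were also the highest, at 211.1 and 270.5 CPM. Without them the adjusted p was 0.126, and with those reads as a covariate it was 0.0578. Both alternatives were added after the data were seen.

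The CCR2 ligands did not pass with pioglitazone on average, with Ccl2 at a log2 difference of -0.93 ± 0.51 (adjusted p = 0.199), Ccl7 at -0.62 ± 0.52 (0.423) and Ccl12 at -1.09 ± 0.46 (0.1). At 24 h the PIO libraries of Ccl2 (0.321, 0.521 and 0.501 CPM) lay below all CTRL libraries, and so did those of Ccl7 (0.193, 0.325 and 0.286 CPM) and Ccl11 (1.29, 1.43 and 1.14 CPM). Ccl2 held only 5, 8 and 7 counts in PIO and 6, 20 and 63 in CTRL. Ccl7 held 3, 5 and 4 counts in PIO and 4, 5 and 21 in CTRL. The nearest PIO and CTRL libraries lay at 0.521 and 0.527 CPM for Ccl2 and at 0.325 and 0.330 CPM for Ccl7. The separation of these 2 genes thus rested on few counts. In all, 5 members did not overlap and were lower in PIO at 24 h, beside 10.6% of all genes, and at 6 h 4 were lower and 1 was higher, beside 6.73% and 8.68%. In PIO+GM against GM the split was less one-sided, with shares of all genes not given here. At 24 h 4 were lower (Ccl5, Ccl12, Cxcl16 and Cxcr4) and 3 higher (Ccl3, Ccl25 and Ccr9). At 6 h 1 was lower (Ccr1) and 2 were higher (Ccl28 and Ccr9). The exact two-sided permutation p of 3 against 3 libraries cannot go below 0.1. Ccl2 in GM at 24 h measured 4.22, 1.69 and 3.14 CPM, and in PIO+GM 1.92, 1.06 and 0.654 CPM, with overlap.

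PIO+GM 6 h replicate 1 stood apart from its fellows in many ligands. It held the highest Ccl2 (56.8 CPM), Cxcl10 (54.4 CPM), Ccl5 (3.64 CPM) and Cxcl14 (60.3 CPM) of its group. Without it PIO+GM against GM at 6 h called 4 members in place of 0 (Ccl9, Cx3cl1, Cxcl14 and Cxcr4), and the share of all genes called went from 1.32% to 24.4%. The averaged pioglitazone comparison called 10 members in place of 7, with Ccl12, Ccl5 and Cx3cl1 added, and 28.5% of all genes in place of 20.5%.

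Some mesenchymal and hair cell markers were also lower with pioglitazone, where 10.2% of all genes were. Of 6 mesenchymal markers 3 were lower (Col1a2, Pdgfra and Postn), with overlapping sums of 2065 to 3023 CPM with and 2550 to 4253 CPM without the drug. Of 8 hair cell markers 3 were lower (Myo7a, Pou4f3 and Gfi1), and the sums with the drug (454 to 845 CPM) lay inside the range without it (396 to 918 CPM). Their part in the result was not tested.

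Gentamicin alone was compared with CTRL to see whether the ototoxic drug raised these ligands. GM against CTRL called 0 of 26 members with edgeR at 6 h (0% of all genes) and at 24 h (0.0123%), and DESeq2 also called 0 at both times (0% and 0.0699%). At an unadjusted p under 0.05 there was 1 member at 6 h, Cxcl10, and 0 at 24 h, beside 1.49% and 1.67% of all genes. Averaged over time and pioglitazone, edgeR called 0 of 26 (0.276% of all genes), 3 members passed unadjusted, all higher (Cxcl10, Ccl5 and Ccr9, beside 3.66% of all genes), and DESeq2 called 1, Cxcl10 (0.578%). The estimate lay above 0 for 19 of 26 members, with a median log2 difference of 0.28 beside -0.01 over all genes, but 4 of the 26 (Ccl5 and the 3 Ccl21 copies) reached the filter's level in 3 libraries only with gentamicin.

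Cxcl10, which draws activated T cells and NK cells and is a standard readout of IFN signalling, measured 2.49, 8.38 and 3.03 CPM in CTRL and 7.57, 27 and 16.7 CPM in GM at 6 h. Only the highest CTRL library reached into the GM range. The log2 difference was 1.89 ± 0.80, with an unadjusted p of 0.0278 that did not survive adjustment (adjusted p = 1). It was 2.63 without CTRL replicate 2 and 1.40 without GM replicate 2. At 24 h CTRL measured 4.83, 2.05 and 7.86 CPM and GM 10.6, 4.53 and 12.8 CPM, with overlap.

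With pioglitazone added, Cxcl10 measured 54.4, 33.3 and 2.43 CPM in PIO+GM and 7.9, 2.86 and 2.82 CPM in PIO at 6 h. At 24 h it measured 5.89, 3.71 and 4.25 CPM in PIO+GM and 0.386, 0.846 and 2.65 CPM in PIO. The group mean was thus higher with than without gentamicin in 4 of 4 pairs, and the libraries of the last pair did not overlap. Averaged, the log2 difference was 1.85 ± 0.41 (adjusted p = 0.0592). Without PIO+GM 6 h replicate 3, the smallest library, the adjusted p was 0.00767, and DESeq2 gave 0.00512. It was also under 0.05 without CTRL 6 h replicate 2 (0.0291), GM 24 h replicate 2 (0.0475) or PIO 24 h replicate 3 (0.0454), and in 9 of 31 alternatives in all, with a highest value of 0.138. Of its exon bases 5.91% lie opposite Art3.

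Ccl5, another ligand of T cells, lay near the detection limit. At 6 h it measured 0.483, 0.529 and 0.16 CPM in CTRL and 0.925, 0.927 and 1.77 CPM in GM, without overlap. It was the only tested member whose groups did not overlap in GM against CTRL at 6 h, as did 5.23% of all genes, and no member's groups were apart at 24 h, where those of 5.66% of all genes were. Averaged, the log2 difference was 1.75 ± 0.56 (adjusted p = 0.425), and without CTRL 24 h replicate 3, at 1.75 CPM the highest library without gentamicin, it was 2.47 with an adjusted p of 0.0422. It was 2.37 without PIO 24 h replicate 2 and 1.31 without PIO+GM 6 h replicate 1. Ccl7 had an averaged estimate of 1.08 ± 0.52 and Ccr9 of 1.07 ± 0.51 (adjusted p = 1 for both). With 1 library left out at a time, the estimate of Ccr9 ran from 0.863 to 1.96.

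**Figure D4:**
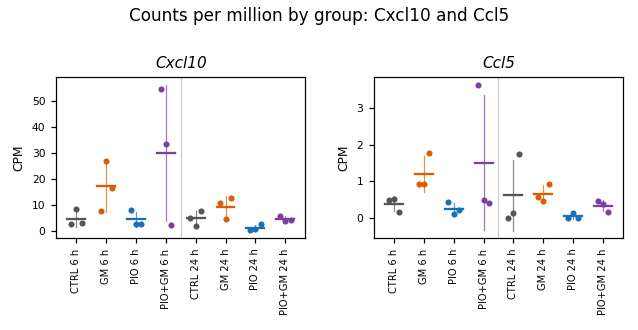
CPM of Cxcl10 and Ccl5 in the 8 groups. Points are libraries, horizontal bars the mean of 3 libraries and vertical lines ± 1 SD. Cxcl10 is highest in GM and PIO+GM at 6 h, where replicate 3 of PIO+GM stays at 2.43 CPM, and Ccl5 stays under 4 CPM in every library.

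Tests of whether 1 factor changed the effect of another called 0 of 26 members. For pioglitazone by time (0.00613% of all genes called) 5 members passed unadjusted, for pioglitazone by gentamicin (0%) 2 passed and for gentamicin by time (0%) 0 passed, beside 10.1%, 2.43% and 1.63% of all genes. DESeq2 called 0 members in each, beside 0.296%, 0% and 0.0561% of all genes. The lowest p for pioglitazone by time was that of Ccl9 (log2 difference of differences 1.2 ± 0.49, unadjusted p = 0.0233, adjusted p = 0.476), and for pioglitazone by gentamicin that of Cxcl1 (2.10 ± 0.84, unadjusted p = 0.0212, adjusted p = 1).

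**Figure D5:**
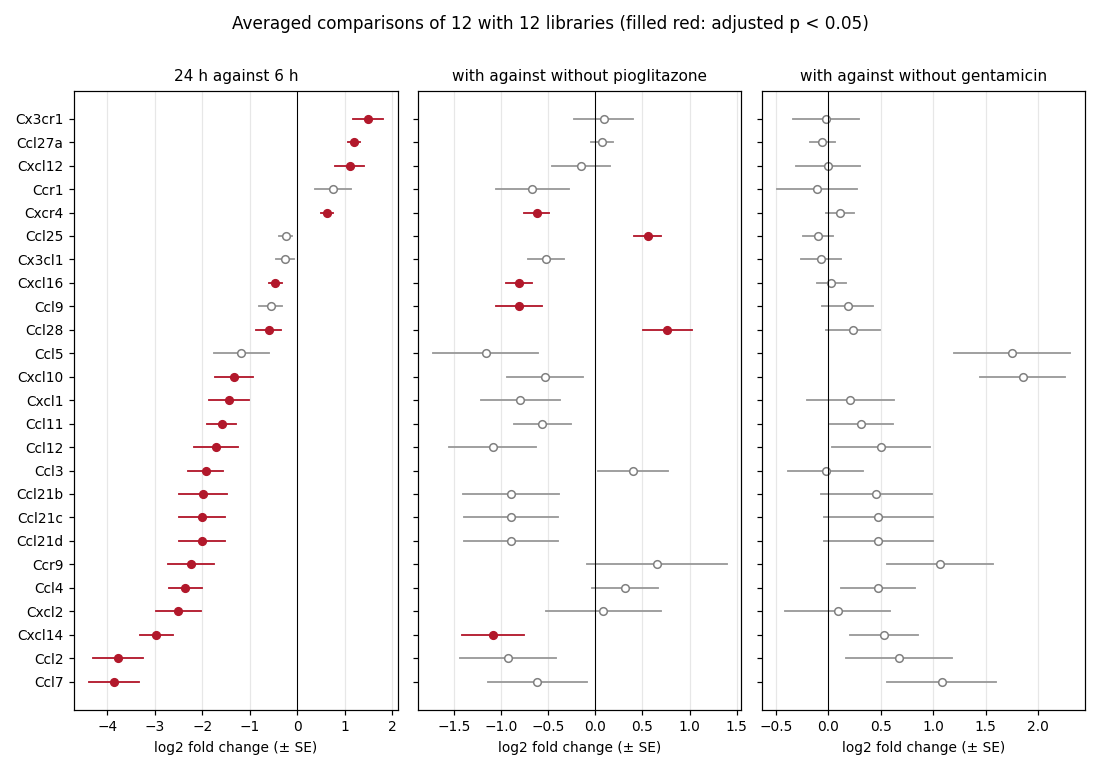
Log2 fold change ± SE of 25 of the 26 tested members in the 3 averaged comparisons of 12 with 12 libraries, ordered by the difference between 24 h and 6 h. Filled red points have an adjusted p below 0.05 in the main edgeR fit, which 20 of those drawn reach for time, 6 for pioglitazone and none for gentamicin.

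Other genes of the chemokine pathway were taken from lists. Of 9 tested atypical receptors and related ligands, 1 was lower with pioglitazone on average, the chemerin receptor Cmklr1 (log2 -1.18 ± 0.40, adjusted p = 0.0418), beside 10.2% of all genes. Over time 1 was higher, the scavenging receptor Ackr2 (0.97 ± 0.28), and 3 were lower, the Cxcl12 scavenger Ackr3 (-0.51 ± 0.10), Ackr1 (-1.33 ± 0.55) and the platelet chemokine Pf4 (-0.72 ± 0.28), beside 31.9% and 30.7% of all genes. None passed with gentamicin on average, as only 0.276% of all genes did.

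Of 25 genes that carry the signal from chemokine receptors, 5 were lower with pioglitazone and 0 higher, where 10.2% of all genes were lower. They were the G protein subunits Gnb1 (log2 -0.15 ± 0.04) and Gng2 (-0.26 ± 0.09), the lipid kinase subunit Pik3cg (-0.47 ± 0.15), the Rac activator Elmo1 (-0.41 ± 0.13) and the Src-family kinase Fgr (-0.94 ± 0.31). Over time 9 were higher and 9 lower, beside 31.9% and 30.7% of all genes. Of 11 tested NF-kB subunits and cytokines, 0 passed on average with pioglitazone (20.5% of all genes did) or gentamicin (0.276%). At 24 h 7 were lower, beside 30.7% of all genes. Il6 differed most of these (-3.40 ± 0.56, adjusted p = 3.26e-05), then Il1b (-2.52 ± 0.68, adjusted p = 0.00333) and Tnf (-1.61 ± 0.33, adjusted p = 0.000265).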

How the data were processed

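Total RNA of 24 libraries from OC explants was sequenced by the authors as stranded single reads, mapped with STAR (build mm10 per the labels) and counted per Entrez gene as reads starting in a RefSeq exon. The deposited values are raw counts, with the length of each gene. Use of strand and of reads with several matches is not stated in the sources used here.

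Entrez IDs were matched to symbols for 24374 of 24454 genes. Counts were fitted with edgeR 4.0.16 (R 4.3.3), with TMM scaling, filterByExpr, a mean for each of the 8 groups and the quasi-likelihood test, with Benjamini-Hochberg adjustment over 16317 genes. Averaged comparisons contrasted 12 with 12 libraries. The members, lists and tests were chosen with earlier results of these data known. Genes were named if the study named them (Ccl2, Ccl9, Ccl12, Cxcl10 and Cxcl16), if called in any comparison, if among the 3 lowest p in a comparison or the 10 highest mean RPKM, or as receptor or ligand of such a gene. A further gene is counted among the members but not reported here.

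Totals of 7211357 to 15548856 counts set the precision. Replicates of a group differed beyond sampling noise (chi-square per degree of freedom of 10.7 to 85.4). Alternatives were DESeq2 1.42.0, no TMM scaling, other filters, a replicate block, a GC correction with that block, each time point alone and each library left out. A covariate for olfactory and vomeronasal receptor reads and leaving out the 2 smallest libraries were added after seeing the data. The scripts were tested on simulated data. Exon overlaps came from GENCODE vM21 and promoters from RefSeq.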

Additional observations from a re-analysis of the deposited data

How the results depend on the processing

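For 53 pairs of a named gene and a comparison, 1678 alternative values were computed. No direction reversed, 1605 stayed on the same side of the threshold, 54 missed it and 19 newly passed it. Of 32 called pairs, 24 kept their call under every alternative. The number of members called moved as follows, and the cause was not tested unless stated. Shares of all genes called in the same fit stand in parentheses. PIO against CTRL went from 0 to 2 with DESeq2 at 6 h (2.52%) and to 1 at 24 h (0.97%), and with the GC correction and replicate block to 1 at 6 h (Cxcr4, 4.46%) and to 1 at 24 h (Ccl11, 2.9%). Gentamicin, averaged, went from 0 to 1 (Cxcl10) with DESeq2 (0.578%), no filter (0.235%), the replicate block (0.496%), the GC correction with the block (0.386%), or without the 2 smallest libraries (0.232%). Asking for 10 counts in every library left only 10 members to test, of which 3 were called over time in CTRL (30.8%) and 8 on average (64.3%), with 4 lower and 4 higher. Without the filter 30 of 59 members were called over time on average (47.6%) in place of 20 of 26 (62.6%), and with DESeq2 29 (53.4%), with Cxcr2, Ccl6, Ccl8, Ccl22, Ccl24, Ccl27b, Cxcl3 and Cxcl9 added in both. DESeq2 also called 7 in place of 5 over time in CTRL (28.6%), and the GC correction with the block 10 in place of 7 for pioglitazone on average (27.7%). The number of members expressed, 26, was 10 with 10 counts in every library and 59 with 1 count in any.

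With each library left out in turn, the counts ranged from 19 to 23 for time on average (59.4% to 63.9% of all genes), from 2 to 7 for time in CTRL (16.1% to 31.4%), from 5 to 10 for pioglitazone on average (14.9% to 28.5%), from 0 to 1 for gentamicin on average (0.157% to 0.542%) and for PIO against CTRL at 6 h (0.0361% to 1.55%), and from 0 to 4 for PIO+GM against GM at 6 h (0.0241% to 24.4%), and stayed at 0 elsewhere. The 4 and the 10 were found without PIO+GM 6 h replicate 1, and the 2 without CTRL 6 h replicate 2.

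Groups share replicate numbers, and controls were cultured in parallel, but the labels do not say that a number marks a shared litter, batch or day, and not every same-numbered pair was alike, so the numbers were not taken as pairs. Same-numbered libraries correlated at -0.31 to 0.68 at 6 h and -0.02 to 0.72 at 24 h, and 8 of 12 and 11 of 12 libraries lay closest to their own number, a hint of pairing from the data that was stronger at 24 h (mean r 0.38, against -0.18 for other pairs). With the block the counts were 20 for time on average (63.4% of all genes), 6 for time in CTRL (30%), 8 for pioglitazone on average (29.2%) and 2 for PIO against CTRL at 6 h (2.27%). Fold changes tracked GC content over all genes most in PIO+GM against GM at 6 h (Spearman rho -0.62) and for pioglitazone on average (-0.40). At 3 counts, or 0.193 to 0.405 CPM, counting error is large, and the filter left out 33 members, with 14 of the 19 receptors among them.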
